A study of Rattus norvegicus with 4 samples.

Results

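Isolated narrow H3K9me3 sites found in both antibody libraries are described here: places where 1 short vehicle peak and 1 short BCAA peak overlap and no other H3K9me3 peak lies nearby. The members were chosen by measured values of the peak lists. A pair had to lie on chromosomes 1 to 20 and overlap by at least 1 bp. Both peaks had to be under 500 bp wide, and no other peak of either H3K9me3 list could lie within 10 kb. Pairs in the dense 2 Mb stretches of chromosome 1 that begin at 54 and at 180 Mb were left out. The rule found 667 pairs among 1425 overlapping pairs on chromosomes 1 to 20 (46.8%, exact 95% interval 44.2 to 49.4%) and 1513 on all sequences. Each pair used its own vehicle and its own BCAA peak.

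The libraries came from CUT&Tag, which cuts and tags DNA where an antibody has bound chromatin, on adipose-derived mesenchymal stem cells from the Sprague Dawley strain of rat. The cells were kept in a serum-containing medium without branched-chain amino acids (BCAA) and given vehicle or 3.432 mM BCAA for 12 h, with 100 µM hydrogen peroxide present in all groups, vehicle included. How many rats or cultures stood behind a library is not given in the labels. Each condition was represented by 1 H3K9me3 library and 1 library made with normal rabbit IgG. The peak lists held 8929 vehicle and 16704 BCAA H3K9me3 peaks and 16 and 11 IgG peaks. With 1 library per group there was no replicate check and no p-value, and all intervals below cover counting error only. Peak lists hold no expression values, so the labelled cell type could not be checked against its markers.

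H3K9me3 is trimethylation of lysine 9 on histone H3. It is placed by histone methyltransferases such as SUV39H1, SUV39H2 and SETDB1 and is bound by HP1 proteins, which help to compact chromatin. The mark is best known from broad domains at centromeres and other repeats, but SETDB1, recruited through KRAB zinc finger proteins and TRIM28, also places it at single transposable elements and at some gene ends. A peak list alone does not say which element or gene lies under a peak, nor whether a short peak is a thinly covered part of a wider domain.

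At 6 of the 10 strongest pairs, the peaks of both libraries began and ended within 5 bp of each other, and at the other 4 the edge offsets summed to 19, 34, 55 and 81 bp. Pairs were ordered by fold enrichment, the authors' linear ratio of signal to background, taking the smaller of the vehicle and BCAA values. These values ranked the sites and are given as a description. The first of the order lay on chromosome 1, at 270803 to 270975 with vehicle (fold enrichment 38.2) and at 270801 to 270975 with BCAA (29.8). The next, also on chromosome 1, spanned 36361172 to 36361390 with vehicle (34.8) and 36361171 to 36361390 with BCAA (28.1). On chromosome 10 both libraries gave exactly 98727739 to 98727934, at 25.3 with vehicle and 24.9 with BCAA. In these 3 pairs the starts lay at most 2 bp apart and the ends coincided.

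Others of the 10 strongest repeated this form. On chromosome 13 the peak of the vehicle library at 88356925 to 88357088 (30.6) and the BCAA peak at 88356923 to 88357086 (22.9) were both 164 bp wide and 2 bp apart. On chromosome 4 the vehicle peak at 182018920 to 182019085 (25.3) lay inside the BCAA peak at 182018919 to 182019086 (22.8), with 1 bp to spare on each side. On chromosome 19 the vehicle peak at 46756296 to 46756468 (18.5) lay inside the BCAA peak at 46756294 to 46756470 (20.4), with 2 bp on each side. These 3 pairs completed the 6 with both edges within 5 bp.

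In the remaining 4 pairs of the 10, the BCAA peak reached farther on at least 1 side. On chromosome 16 it ran from 5673431 to 5673625 (20.6) against 5673446 to 5673621 with vehicle (20.7). On chromosome 15 both peaks began at 78122548, and the end moved from 78122860 with vehicle (19.98) to 78122894 with BCAA (17.2). On chromosome 18 the vehicle peak at 38497612 to 38497958 (16.5) was extended on both sides to 38497588 and 38497989 with BCAA (22.6). On chromosome 9 both began at 12269366, and the end moved from 12269572 (16.3) to 12269653 (16.5). The 10 pairs lay on 9 chromosomes, with peaks of 164 to 402 bp. The vehicle value was the higher one in 7 of them, whereas the BCAA value was higher in 18 of the 26 pairs with a lower fold enrichment of 10 or more and in 477 of all 667.

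**Figure D1:**
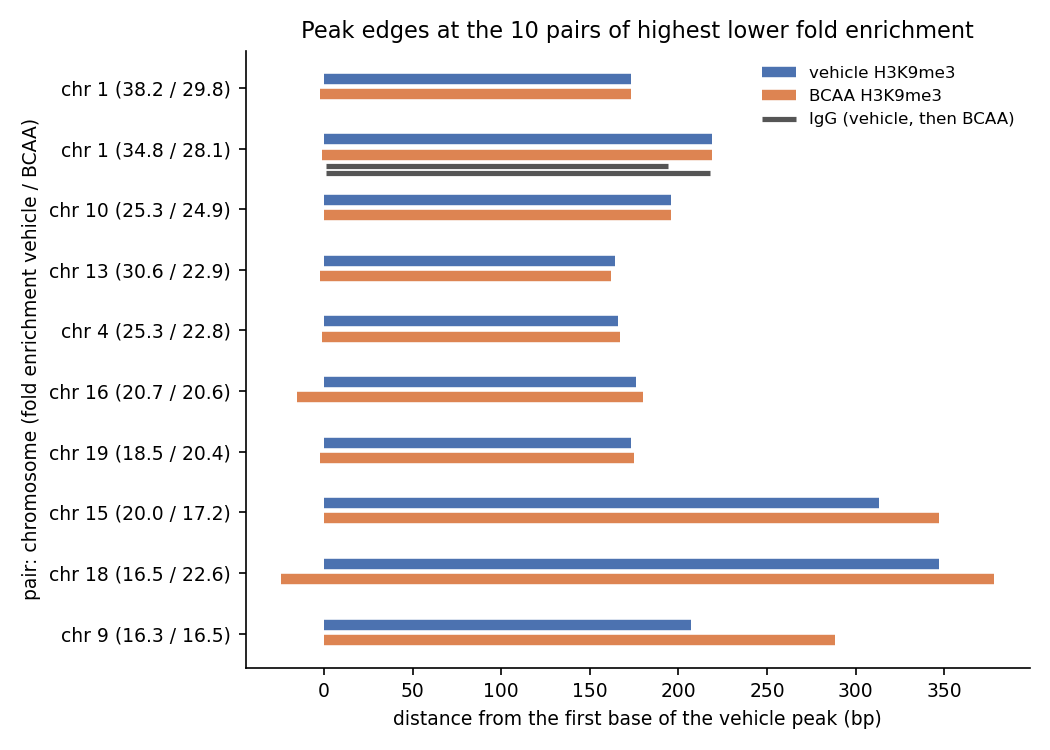
Extent of the vehicle (blue) and BCAA (orange) H3K9me3 peaks at the 10 pairs of highest lower fold enrichment, with IgG peaks (grey) where present, in bp from the first base of each vehicle peak. The first 5 pairs and the seventh have both edges within 5 bp, and the second is the only pair with IgG peaks.

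Across all 667 pairs the edges agreed less well than in these strong sites. The BCAA peak started before the vehicle peak in 423 pairs, at the same base in 44 and after it in 200. It ended later in 417 pairs, at the same base in 41 and earlier in 209. The median start offset, BCAA minus vehicle, was -15 bp (95% interval -18 to -9) with quartiles of -54.5 and 6 bp. The median end offset was 13 bp (8 to 18) with quartiles of -9 and 54 bp. The median BCAA start and end thus lay outward by similar distances, and the peak centres had a median offset of 0 bp (-3 to 3.5). In 268 pairs the vehicle peak was shorter than any BCAA peak, so at least 1 BCAA edge had to lie outward there. Where both peaks were at least as wide as the shortest BCAA peak, the median start and end offsets were -5 and 5 bp. Regardless of sign, the median offset was 35 bp for starts (31 to 40) and 35 bp for ends (30 to 39), and 145 starts and 141 ends lay more than 100 bp apart.

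By arrangement, the pairs fell into 4 kinds besides those with identical edges. The BCAA peak covered the whole vehicle peak and more in 288 pairs (43.2%, 39.4 to 47.0%), and the reverse held in 45 (6.75%, 4.96 to 8.92%). Among the 758 other overlapping pairs of these chromosomes the counts were 427 (56.3%, 52.7 to 59.9%) and 48 (6.33%, 4.71 to 8.31%). The shortest peak was 119 bp in the vehicle list and 163 bp in the BCAA list, so a vehicle peak under 163 bp could not span a BCAA peak. In the remaining isolated pairs the peaks were shifted, the BCAA peak to higher positions in 160 and to lower positions in 171. Neither direction of shift prevailed beyond counting error. The shared stretch had a median length of 156 bp (153 to 159), and it made up at least 50% of the wider peak in 500 pairs. At the other end, 2 pairs overlapped by a single base: on chromosome 20 the vehicle peak at 16519049 to 16519205 met the BCAA peak at 16519205 to 16519399, and on chromosome 10 the BCAA peak at 35211145 to 35211355 met the vehicle peak at 35211355 to 35211496. Such contacts count as members under the rule, but the 2 peaks cover different DNA.

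Among the isolated pairs, edge agreement was closest in the strongest class. The median start offset regardless of sign was 41 bp (31 to 54) among the 219 pairs with a lower fold enrichment under 3, and 42 bp (32 to 56) among the 170 pairs from 3 to 4. It was 37.5 bp (29 to 45) in the 186 pairs from 4 to 6, 22 bp (15 to 29) in the 66 from 6 to 10, and 2.5 bp (1 to 15) in the 26 at 10 or more. End offsets in the same order were 35, 49, 32, 19 and 4.5 bp. The weakest 3 classes thus had overlapping intervals for the start offset, while the strongest class lay below them. In narrow pairs with another peak within 10 kb, outside the chromosome 1 blocks, the start medians in the same order were 61, 36.5, 38, 23.5 and 27 bp. Only 10 of those pairs were in the strongest class, and their interval of 0 to 47 bp overlaps that of the isolated pairs.

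Both edges lay within 5 bp in 16 pairs (2.40%, 1.38 to 3.87%), a limit chosen after the offsets had been seen. Of these, 9 were among the 26 pairs of fold enrichment 10 or more (34.6%, 17.2 to 55.7%), and the other 7 were weaker. They made up 0 of 66 pairs from 6 to 10, 1 of 186 from 4 to 6, 2 of 170 from 3 to 4 and 4 of 219 under 3. Below 10 the share therefore did not rise with strength. None of the 35 equally strong overlapping pairs outside the isolated narrow set had both edges within 5 bp, which leaves an upper limit of 10.0%. That comparison mixes widths, because the other pairs include peaks of 500 bp or more. Only 10 of them were narrow pairs with a neighbour outside the chromosome 1 blocks, none with both edges within 5 bp, and the interval of 0 to 30.8% then overlaps that of the isolated pairs. Over all strengths the share was 2.54% (7 of 276, 1.03 to 5.16%) in narrow pairs with a neighbour, close to that of the isolated ones.

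The 3 strong tight pairs not yet named lay on chromosomes 1, 20 and 8. On chromosome 1 a vehicle peak spanning 56789908 to 56790072 (19.5) was matched by a BCAA peak at 56789907 to 56790074 (15.1). On chromosome 20 the vehicle peak at 35360255 to 35360481 (14.3) was matched by one at 35360254 to 35360481 (14.7). On chromosome 8 both began at 110805074 and ended at 110805248 with vehicle (14.2) and 110805253 with BCAA (26.7). Identical or nearly identical edges also occurred at weak sites. On chromosome 11 both libraries gave 13893846 to 13894033 at 3.65 with vehicle and 3.26 with BCAA, and on chromosome 2 both gave 105197094 to 105197258 at 2.90 and 3.48. Matching edges were thus not limited to strong sites.

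**Figure D2:**
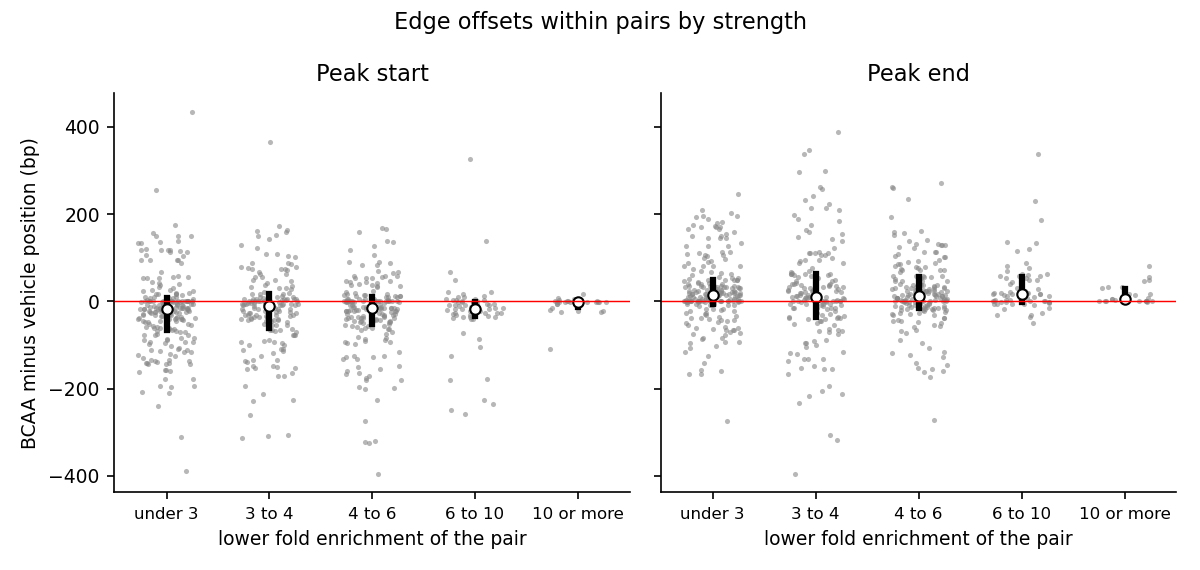
Offset of the BCAA peak from the vehicle peak in bp, for peak starts (left) and ends (right), 1 grey point per pair, by class of the pair's lower fold enrichment. Open circles are medians and black bars run from the lower to the upper quartile. The spread narrows in the class of 10 or more, which holds 26 pairs.

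The BCAA peak was the wider one in most pairs. Median width was 168 bp with vehicle (quartiles 151 and 207) and 209 bp with BCAA (183.5 and 282.5). Within pairs the BCAA peak was a median of 34 bp wider (31 to 40), with quartiles of 9 and 75 bp and extremes of -306 and 353 bp. It was wider in 542 of the 667 pairs (81.3%, 78.1 to 84.2%), of equal width in 7 and narrower in 118. Over all 1425 overlapping pairs of these chromosomes the BCAA peak was wider in 82.8%. The rule limits these widths, and the share in the isolated pairs is near this background. The 667 vehicle peaks covered 132 kb of the 1511 kb in all vehicle peaks of these chromosomes, and their BCAA partners covered 162 kb of 3699 kb.

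The shortest lengths that occur in the lists differ, and this bears on the widths directly. As given above, the shortest BCAA peak was 44 bp longer than the shortest vehicle peak. In 268 pairs (40.2%, 36.4 to 44.0%) the vehicle peak was shorter than any BCAA peak, so the BCAA peak had to be wider there. Among the other 399 pairs the BCAA peak was wider in 274 (68.7%, 63.9 to 73.2%), and the median difference was 17 bp (13 to 21). In the 26 strongest pairs the median difference was 13 bp (2 to 25). An effect of BCAA on the width of these sites cannot be told apart from the different shortest lengths of the lists.

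The largest differences in width came from weak or medium sites. On chromosome 2 a vehicle peak of 138 bp (129502451 to 129502588, fold enrichment 2.93) met the end of a BCAA peak of 491 bp (129502062 to 129502552, 2.77). On chromosome 20 a vehicle peak of 138 bp at 45830172 to 45830309 (5.92) met a BCAA peak of 476 bp at 45829776 to 45830251 (4.43). On chromosome 5 a vehicle peak of 139 bp at 37710280 to 37710418 (3.61) lay inside a BCAA peak of 462 bp at 37710067 to 37710528 (7.39). A vehicle peak of 120 bp on chromosome 14 (35820004 to 35820123, 3.75) and one of 153 bp on chromosome 1 (14575927 to 14576079, 2.86) likewise lay inside BCAA peaks of 433 bp (35819905 to 35820337, 8.03) and 463 bp (14575812 to 14576274, 3.58). All 5 were wider with BCAA, but these vehicle peaks measured 120 to 153 bp and BCAA widths start at 163 bp. With vehicle peaks this short no other direction was possible. Over all 1425 overlapping pairs of chromosomes 1 to 20 the background was 82.8% wider with BCAA.

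**Figure D3:**
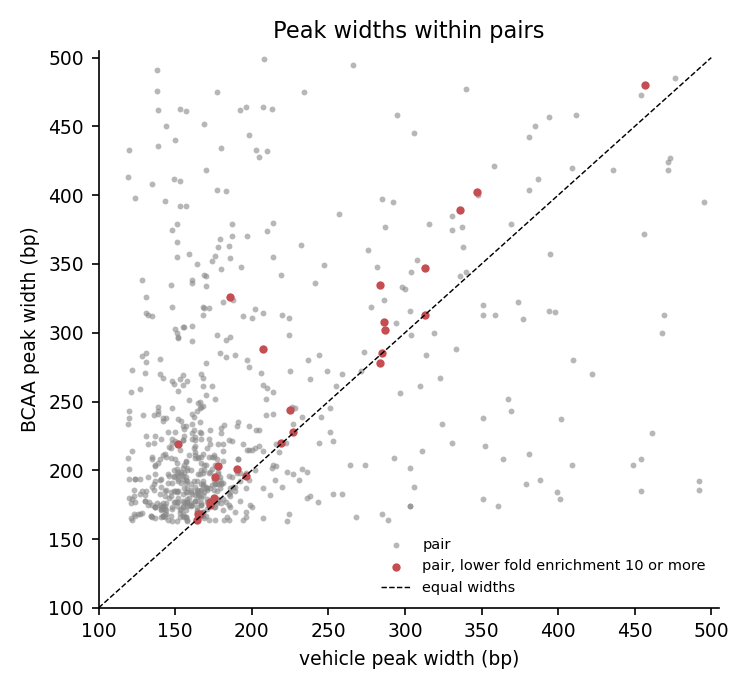
BCAA peak width against vehicle peak width in bp, 1 point per pair, with pairs of lower fold enrichment 10 or more in red and equal widths as a dashed line. Most pairs lie above the line, the red points lie closer to it, and no BCAA peak is under 163 bp.

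Most isolated narrow pairs were weak. The vehicle fold enrichment had a median of 3.85 (3.72 to 4.005), quartiles of 2.93 and 5.25 and a range of 2.82 to 38.2. The BCAA fold enrichment had a median of 4.79 (4.58 to 4.97), quartiles of 3.74 and 6.96 and a range of 2.77 to 29.8. The lower value of the pair reached 5 in 155 pairs and 10 in 26. Median −log10 q, the authors' adjusted peak significance, was 2.30 with vehicle and 3.23 with BCAA, and it reached 20 in 16 vehicle and 54 BCAA peaks of the pairs. Ranks of the vehicle and BCAA values went together (Spearman rho 0.629 over 667 pairs, which share their local sequence and entered only if present in both lists). Other overlapping pairs were only somewhat stronger, with median fold enrichments of 4.76 (vehicle) and 5.10 (BCAA). In narrow pairs with a neighbour within 10 kb, outside the chromosome 1 blocks, the medians were 4.37 and 4.94.

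Fragment numbers were small where they could be recovered. For 226 of the vehicle peaks (33.9%) a whole number of overlapping fragments reproduced both the fold enrichment and the p-value, under the peak caller's usual formulas. That number was 2 in 175 of them, 3 in 43 and 4 or more in 8. Among the BCAA peaks of the pairs it was recovered for 98 (14.7%), as 2 in 61, 3 in 25 and 4 or more in 12. In 38 pairs (5.70%, 4.06 to 7.74%) both peaks rested on 2 fragments. The formulas add the same constant to signal and to background before dividing, which lowers the ratio most where the background is low. The recovered fragment numbers refer to peaks of even height, and a match can also arise by coincidence. For the remaining peaks no number was recovered, and the small numbers need not hold for them.

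Isolated narrow sites without a partner had lower median widths and fold enrichments than the pairs, but a lone vehicle peak reached a fold enrichment of 48.9, above the 38.2 of the strongest pair. By the same limits of width, distance and chromosome, 5395 vehicle and 10959 BCAA peaks stood alone. The pairs therefore made up 667 of 6062 isolated narrow vehicle sites (10.2 to 11.8%) and 5.74% of the BCAA sites (667 of 11626, 5.32 to 6.18%). Lone vehicle peaks had a median width of 150 bp and a median fold enrichment of 2.90, and lone BCAA peaks 184 bp and 2.98. Exactly 2 fragments were recovered for 62.8% of the lone vehicle peaks, against 26.2% of the vehicle peaks in pairs. For BCAA peaks the shares were 45.3% and 9.15%. Any fragment number was recovered for 68.9% of lone vehicle peaks and 33.9% of those in pairs. For BCAA peaks recovery was 56.8% and 14.7%. The shares with 2 fragments therefore also reflect how often a number was recovered.

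The share of isolated sites with a partner rose with strength. Of the vehicle sites, 5.02% had one at a fold enrichment under 3 (197 of 3923), 55.9% at 5 or more (189 of 338, 50.4 to 61.3%) and 60% at 10 or more (27 of 45, 44.3 to 74.3%). Of the BCAA sites, 1.27% had one under 3 (71 of 5584), 33.8% at 5 or more (304 of 899, 30.7 to 37.0%) and 91.2% at 10 or more (83 of 91, 83.4 to 96.1%). At 10 or more, 18 vehicle peaks and 8 BCAA peaks stood alone. Fold enrichment was given for each library separately, with a background whose source is not stated, so the vehicle and BCAA shares are not on a common scale. A narrow peak whose partner was 500 bp or wider counted neither as paired nor as alone, here and in the totals above.

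The BCAA value exceeded the vehicle value in 477 of the 667 pairs (71.5%, 67.9 to 74.9%), with a median ratio of 1.23 (1.19 to 1.26). In narrow pairs with a neighbour the BCAA value was higher in 187 of 276 (67.8%, 61.9 to 73.2%) and the median ratio was 1.17 (1.13 to 1.23), and both intervals overlap those of the isolated pairs. In pairs with a peak of 500 bp or more these values were 54.4% (49.4 to 59.3%) and 1.03 (0.998 to 1.06). The authors' values were given for each library separately, and it is not stated if their background came from that library or from IgG. The depths of the libraries are not known either, so the ratio does not measure a change in H3K9me3. It was at least 2 in 67 pairs (10.0%, 7.87 to 12.6%), against a background of 6.67% over all 1425 overlapping pairs. The opposite, a vehicle value at least 2 times the BCAA value, held in 2 pairs (0.300%, 0.0363 to 1.08%), against a background of 0.561%. Among the 758 overlapping pairs outside the set, the ratio was at least 2 in 28 (3.69%, 2.47 to 5.29%), an interval that lies below that of the isolated pairs. In the 276 narrow pairs with a neighbour the share was 4.71% (2.53 to 7.92%), and this interval narrowly overlaps that of the isolated pairs. In pairs with a peak of 500 bp or more it was 1.46% (0.539 to 3.16%). The sets also differ in strength, with a median vehicle fold enrichment of 3.85 in the isolated pairs and 4.76 in the 758 others. These shares were not adjusted for strength.

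The 3 highest ratios came from weak vehicle peaks with stronger BCAA partners. On chromosome 7 the vehicle peak at 143564394 to 143564520 had a fold enrichment of 2.95 and the BCAA peak at 143564311 to 143564569 had 13.1, a ratio of 4.43. On chromosome 20 the vehicle peak at 40898522 to 40898931 had 3.64 and the BCAA peak at 40898553 to 40898832 had 15.9, a ratio of 4.37. On chromosome 12 the vehicle peak at 480015 to 480271 had 3.54 and the BCAA peak at 479907 to 480292 had 15.2, a ratio of 4.31. The 2 pairs of the opposite direction lay on chromosome 18 (60952970 to 60953120 with vehicle at 7.87, 60952762 to 60953061 with BCAA at 2.81) and chromosome 1 (27515864 to 27516020 at 6.68, 27515887 to 27516052 at 2.82). These 5 were named after their values had been seen.

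**Figure D4:**
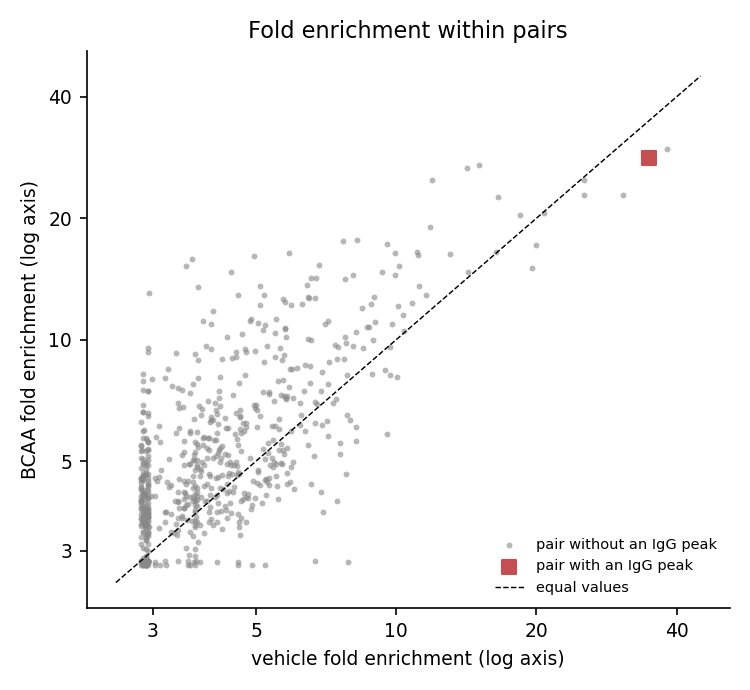
BCAA fold enrichment against vehicle fold enrichment on log axes, 1 point per pair, with equal values as a dashed line and the pair that carries IgG peaks as a red square. Of the 667 pairs, 477 lie above the line, and the weakest values form a band near 3.

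Normal IgG has no chromatin target, and its peaks mark places where DNA was recovered without the H3K9me3 antibody. Of the 667 pairs, 1 carried an IgG peak (0.150%, 0.00380 to 0.832%), the chromosome 1 site at 36361172. Each of the 4 libraries had a peak there. The vehicle IgG peak ran from 36361173 to 36361365 (fold enrichment 10.1) and the BCAA IgG peak from 36361173 to 36361389 (10.8), against H3K9me3 values of 34.8 and 28.1. Both IgG starts lay 1 bp inside the vehicle H3K9me3 start, and the BCAA IgG end lay 1 bp inside the H3K9me3 end. The same pair had the highest −log10 q of the set, 938 with vehicle and 898 with BCAA. How much of its H3K9me3 signal is independent of the antibody was not tested.

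No other pair came within 10 kb of an IgG peak. Of the IgG peaks on chromosomes 1 to 20, 8 with vehicle and 6 with BCAA, the closest to a further pair was the vehicle IgG peak on chromosome 13 at 92996612 to 92996873, 196 kb away. Among the 758 other overlapping pairs, 4 carried an IgG peak (0.528%, 0.144 to 1.35%), and this interval overlaps that of the isolated pairs. No lone narrow peak of either H3K9me3 list was met by an IgG peak. The IgG lists are short, and a site without an IgG peak may still have unspecific signal that was not called. The sources used here do not say if IgG served as a control in peak calling, and these counts may depend on that step.

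The pairs were spread over all 20 chromosomes. Chromosome 1 held 93 pairs (13.9%, 11.4 to 16.8%), chromosome 2 held 70, chromosome 5 held 45 and chromosome 3 held 43. The fewest lay on chromosome 20, with 9 pairs (1.35%, 0.619 to 2.55%). Shares were set against those of all 22517 narrow peaks of both lists outside the chromosome 1 blocks. The ratio of the shares was highest on chromosome 10, at 1.38 (35 pairs, 0.966 to 1.90), and lowest on chromosome 20, at 0.608 (0.279 to 1.15). Of the 20 chromosomes, chromosome 1 alone had a ratio whose interval left out 1, at 1.26 (1.03 to 1.52). No adjustment was made for looking at 20 chromosomes. Against all overlapping pairs the direction was the opposite, as chromosome 1 held 20.4% of those. That background includes the chromosome 1 blocks, which the rule leaves out.

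**Figure D5:**
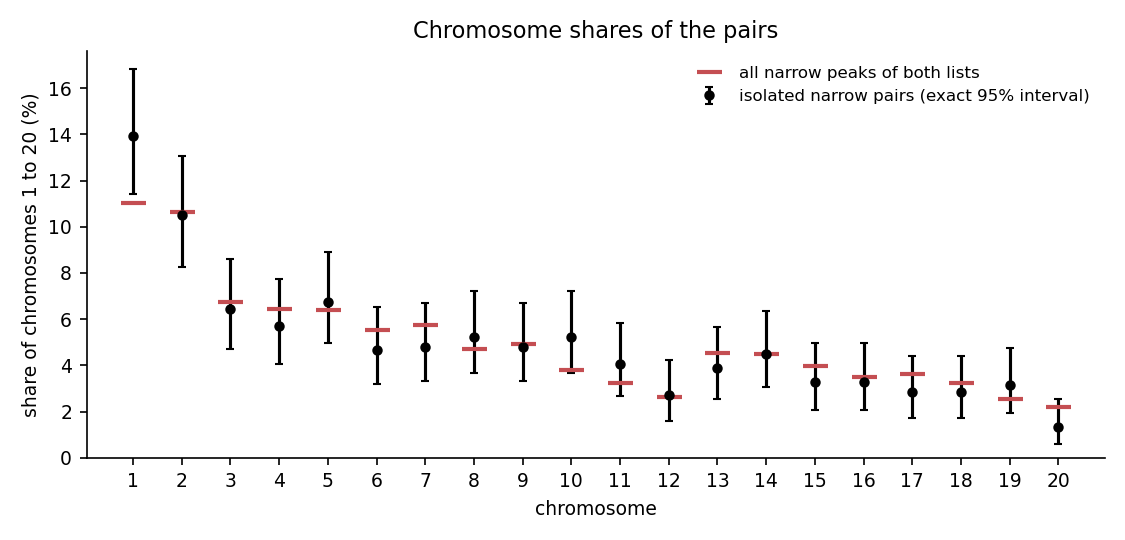
Share of the 667 pairs on each of chromosomes 1 to 20 in percent (black points, bars are exact 95% intervals) and share of all narrow peaks of both lists outside the chromosome 1 blocks (red dashes). The red dash lies outside the interval on chromosome 1 alone.

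Set against length, taken as the highest peak end of each chromosome, there were 25.5 pairs per 100 Mb over the 20 chromosomes. The density ran from 16.1 on chromosome 20 to 34.1 on chromosome 12. With each chromosome divided into 5 equal sections, 24.4% of pairs (21.2 to 27.9%) lay in the section of lowest positions and 23.8% (20.7 to 27.3%) in that of highest positions, against 21.8% and 20.8% of all narrow peaks. The section in the middle held 16.5% of the pairs (13.8 to 19.5%) and 18.4% of the narrow peaks. All 3 narrow-peak shares lay within the intervals of the pairs. Within 5 Mb of the first base or of the highest peak end lay 69 pairs (10.3%, 8.14 to 12.9%) and 8.60% of the narrow peaks.

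The next pair on the same chromosome lay at a median of 2438 kb (2195 to 2789 kb), and 26 of the 647 distances were 100 kb or less. The closest neighbours were a pair on chromosome 8 ending at 126745916 and the next one starting at 126758039, which left 12.1 kb between them. The longest stretch without a pair lay on chromosome 2 from 65122347 to 94336777. Of 2629 intervals of 1 Mb, 569 held a pair and 483 held exactly 1. The most in 1 interval was 4, on chromosome 2 from 194 to 195 Mb.

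The rule fixed a distance of more than 10 kb to the nearest other H3K9me3 peak. That peak lay at a median of 41.9 kb (37.0 to 46.0 kb), with quartiles of 21.8 and 84.9 kb. It was a BCAA peak in 442 pairs (66.3%, 62.5 to 69.9%), and BCAA peaks made up 64.9% of all peaks of these chromosomes. The loneliest pair lay on chromosome 14 at 2587095 to 2587237 with vehicle (fold enrichment 5.89) and 2587073 to 2587244 with BCAA (16.4), 548 kb from the nearest peak. The next lay on chromosome 9 at 61052989 to 61053273 (4.58) and 61052864 to 61053260 (4.70), 450 kb away. In 139 pairs (20.8%, 17.8 to 24.1%) no other peak lay within 100 kb.

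The limits of the rule cut through similar sites. The widest peak admitted was the 499 bp BCAA peak on chromosome 1 at 182500079 to 182500577 (5.15, with a vehicle peak of 208 bp at 6.65), and the narrowest left out for width was the 501 bp BCAA peak on chromosome 16 at 75014102 to 75014602 (3.78, with a vehicle peak of 171 bp at 4.85). The closest neighbours admitted lay 10.085 kb from a chromosome 1 pair at 31118819 to 31118949 with vehicle (4.81) and 31118782 to 31119107 with BCAA (4.13), and 10.097 kb from a chromosome 13 pair at 97332238 to 97332411 (4.22) and 97332226 to 97332486 (5.45). A chromosome 2 pair at 21097014 to 21097242 (7.52) and 21097040 to 21097300 (9.31) had a neighbour at exactly 10 kb and was left out.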

How the data were processed

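The authors deposited 1 list of broad peaks per library. Per the submitters' processing notes, the tools were BWA, MACS2, deepTools and ChIPseeker and the build was rn6; no version, role or setting is named there. The sources used here do not say if IgG served as a control when peaks were called. Every deposited peak has a score, which was not used, a fold enrichment (linear ratio), and a −log10 p and −log10 q value. Positions are printed 1-based in rn6. The lists give no read totals, so depth is unknown beyond the recovered fragment numbers (−log10 p matched within 0.001).

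Groups came from sample titles. Pairs were found with pandas 2.3.3, scipy 1.17.1 and numpy 2.4.6 under Python 3.11.15, tested on simulated peaks, and their number before the width and distance limits was checked with bedtools 2.31.1. A neighbour at 10 kb or less removed a pair. Shares carry exact (Clopper-Pearson) 95% intervals and medians order-statistic 95% intervals. Plots used matplotlib 3.10.9. The members and the quantities described were chosen with earlier results of these data known. Named pairs were the 10 of highest lower fold enrichment, the 5 of smallest edge offsets, the 5 of largest width difference, those within 10 kb of an IgG peak, those at the limits of the rule and the closest and most distant from another peak. The 2 pairs of smallest overlap, 3 further strong pairs with edges within 5 bp and 5 extremes of the fold enrichment ratio were named after their values had been seen. Alternatives changed the distance, width, overlap, q, enrichment and chromosome limits. A genome or annotation of rn6 was not used here, so no gene, repeat or sequence is given.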

Additional observations from a re-analysis of the deposited data

How the results depend on the processing

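Each of 13 results was recomputed under those of 16 alternatives that apply to it. Of 127 values, 95 stayed within the interval of the main value or, for counts, within 1.5 times. None changed sign, but only the median width difference and the edge offsets could do so. The alternatives drew on overlapping sets of pairs, so their values are not independent. Results on edges within 5 bp and the setting that requires both peaks to be at least as wide as the shortest BCAA peak were chosen after seeing the data. The number of pairs was 380 with both peaks at −log10 q of 2 or more, 155 at fold enrichment of 5 or more and 399 at the shortest BCAA width, all by construction of a shorter list. Their share of overlapping pairs was 57.8% with 5 kb and 36.6% with 20 kb of isolation, 34.0% and 55.4% with width limits of 300 and 1000 bp, and 55.2% with isolation from peaks of −log10 q of 2 or more only. Those shares were of all 1425 overlapping pairs. The next 4 are shares of only the overlapping pairs that met the same added limit. They came to 42.0% with the −log10 q limit of 2, 37.2% at fold enrichment of 5, 42.0% at the shortest BCAA width and 55.4% with 50% reciprocal overlap. The cause of the shifts that follow was not tested, except where weak peaks are removed by construction. With a 300 bp limit the BCAA peak was wider in 84.9%, and median fold enrichments were 3.68 (vehicle) and 4.54 (BCAA). With reciprocal overlap the median width difference was 26.5 bp and the medians 4.03 and 5.01. At −log10 q of 2 the medians were 4.85 and 6.20. At fold enrichment of 5 they were 6.72 and 9.55, the median start offset was -8 bp, and 6.45% of pairs had both edges within 5 bp. At the shortest BCAA width the median width difference was 17 bp, the start and end offsets -5 and 5 bp, the BCAA peak was wider in 68.7%, and the medians were 4.32 and 5.15. Edges within 10 bp held for 6.90% of pairs. Fragment numbers were recovered for 19.5% of BCAA peaks when −log10 p was matched within 0.005. Alternatives on genes and gene starts could not be run without an rn6 annotation. No paired analysis was possible because a single H3K9me3 library stood for either condition, which also leaves no replicate to leave out. Neither list gives read totals, and the exact depth of peaks without a recovered fragment number is unknown.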

Other observations

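By the same limits, chromosome X held 17 pairs and chromosome Y held 1. In 14 of these 18 the BCAA peak was wider, against 82.8% of all overlapping pairs on chromosomes 1 to 20. The median difference was 25 bp, and the highest fold enrichments were 7.84 with vehicle and 8.40 with BCAA.

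Inside the 2 dense intervals of chromosome 1 that the rule leaves out, 4 narrow pairs had no other peak within 10 kb. They lay at 54099404 to 54099633 (vehicle fold enrichment 6.21, BCAA 9.94), 54567623 to 54567765 (4.09 and 5.60), 54866622 to 54867057 (3.26 and 5.72) and 180987039 to 180987217 (3.39 and 11.3), in vehicle coordinates. In all 4 the BCAA value was the higher one, as it was in 71.5% of the 667 pairs.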
